A study of Homo sapiens with 10 samples.

Results

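The comparison set the 2 Suntag libraries against the 2 libraries labelled as guide only control, 4 of the 10 poly(A) RNA-seq libraries of the study, over all 31848 gene clusters listed in each table. HEK293T is a human embryonic kidney line, and all 5 groups were transfected with a lipid reagent. Per the series' design, the cells that got an activator (VP64, VPR, SAM or Suntag, each built on dCas9) also got a guide RNA that targets the globin gene HBG1. The control's label names a guide and does not say whether dCas9 or another protein was present, nor which guide it was. The labels give no time after transfection and do not say whether the 2 libraries of a group were separate cultures. The p-values therefore rest on differences between these libraries, and those may be technical.

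Catalytically dead Cas9, or dCas9, binds the DNA that its guide RNA matches without cutting it. In the SunTag design dCas9 carries a chain of short peptide copies, and each copy is bound by a small antibody fragment fused to an activation domain, commonly VP64, so that several activation domains gather at 1 site. VP64 fuses the domain to dCas9 directly, VPR joins VP64 with p65 and Rta, and SAM brings p65 and HSF1 domains through hairpins added to the guide. HBG1 and its near-identical neighbour HBG2 encode the gamma chains of fetal haemoglobin and are normally silent outside red cell precursors.

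RSEM, the program that made the tables, divides each read among the transcripts it fits and sums these shares over a gene cluster, which gives an expected count that need not be whole. The clusters carry numbers in place of gene names. The levels of HBG1, HBG2, the activator components, cell type markers and pathway genes are therefore not analysed here, and clusters are described by transcript length, transcripts and counts. Totals were 5734411 and 5580553 expected counts in Suntag and 4659135 and 6072335 in the control. The 2 Suntag libraries stood further apart than those of any other group, with a chi-square per cluster of 6.14 against 1.70 to 2.68 in the other groups. The mean length of the sequenced fragments, taken as transcript length less RSEM's effective length, was 96.6 and 89.8 nt in Suntag, 133 and 129 nt in the control and 97.5 to 123 nt in the other 6 libraries, so the compared groups did not overlap in it.

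Few clusters passed the test between Suntag and the control, and most of them changed by little. Of 13241 clusters with enough counts to be tested, 176 passed edgeR's quasi-likelihood test at an adjusted p under 0.05, which is 1.33%. Of these, 131 were higher in Suntag (0.989% of those tested) and 45 lower (0.34%). The higher clusters had a median log2 change of 0.53 and the lower ones of -0.45, and 80 of the 131 and 30 of the 45 changed by under 1.5-fold. Only 15 reached 2-fold, 7 higher and 8 lower (0.113% of those tested). By the same edgeR test 2064 clusters had an unadjusted p under 0.05, 1172 of them higher, so few calls need not mean few changes. All 176 had both Suntag libraries on the same side of both control libraries. That alone is no mark of a change, since 43.9% of all tested clusters were so placed, 22.5% higher and 21.4% lower. A copy of the test was run on simulated data with 1 spread per cluster for all groups. It recovered 53.7% of 67 clusters that had been altered 1.5-fold, 80.6% of 67 at 2-fold and 95.5% of 66 at 4-fold, with 12 false calls. So 1.5-fold changes were missed often there. The simulation had neither the wider gap between the 2 Suntag libraries nor a trend of change with transcript length, and it altered no cluster of low mean count. Recovery and false calls in the data may therefore be worse.

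The calls were more frequent among abundant clusters. Of 1312 tested clusters under 3 CPM, the count scaled to a fixed library total, 0.381% were called, and of 453 at 300 CPM or more, 5.96%. The size of the called changes ran the opposite way, with a median absolute log2 change of 7.56 in the former class and 0.42 in the latter. The former class held only 3 higher and 2 lower calls. Its median is a fitted value against 0 counts in the control and is no measure of size. So the large folds rest on few reads and the well-covered changes are small. The highest class held 23 higher and 4 lower calls.

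The number of calls depended on single libraries. It fell to 7 without control replicate 2 and to 23 without control replicate 1, and rose to 376 without Suntag replicate 1. It was 68 without VP64 replicate 1 or 2, and 108 without SAM replicate 1 or 2, although these libraries are not among the 4 compared. The bar plot of calls by setting shows these fits beside the others.

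**Figure D1:**
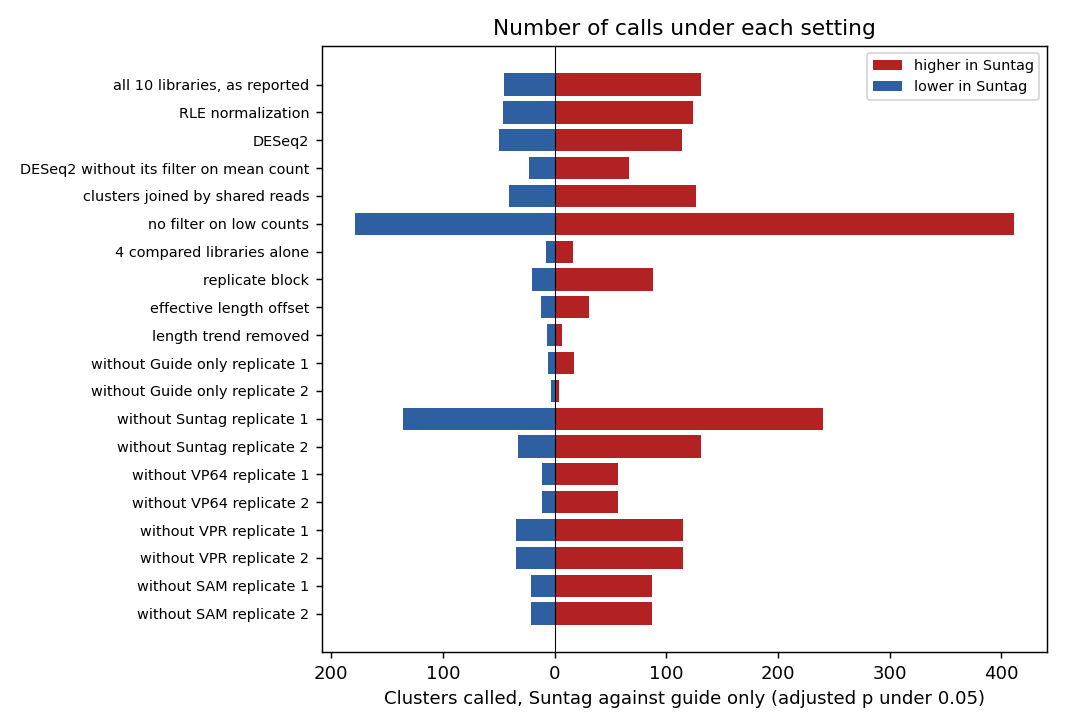
Number of clusters called in Suntag against guide only (x axis, bars to the right higher and to the left lower in Suntag) under each setting of the test (y axis). The 131 higher and 45 lower calls of the top bar shrink to 4 and 3 without control replicate 2 and to 7 and 7 with the length trend removed, and higher calls are at least as many as lower ones in every setting shown.

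The highest-ranked rise, by the rule that orders called clusters by size of change, was cluster 7272, with 4 transcripts and a length of 6917 nt. It held 29.5 and 22.5 counts in the Suntag libraries and 0 in each of the other 8 libraries. Its level was 5.35 and 3.90 CPM in Suntag, or 1.5 and 1.21 TPM, the transcript abundance that RSEM scales by length. Set against a floor of 3 counts over the control group, Suntag was 16.4-fold higher (edgeR adjusted p = 0.0166, higher in 2 of 2 libraries). The call ended without control replicate 1 (edgeR adjusted p = 0.0834) or control replicate 2 (0.149), although the remaining control library also held 0 counts. It ended in DESeq2 without the filter on mean count too (DESeq2 adjusted p = 0.0564). The floor covers the counting error of the group at 0 only and takes the counts of the other group as exact. All count intervals cover counting error only. The counts of cluster 7272 are not whole, as when reads also fit another cluster, and the part of divided reads was not tested for it.

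Cluster 4232 gave the best supported rise. It has 4 transcripts, its length had a median of 831 nt over the libraries, and its counts were whole, so no division of its reads was seen. Suntag held 106 and 73 counts and the control 0 and 3. The level was 18.9 and 12.9 CPM in Suntag against 0 and 0.482 CPM in the control, and 52.5 and 36.3 TPM against 0 and 1.41 TPM. From summed counts Suntag was 56.6-fold higher (95% exact interval 19.1 to 277). The fitted log2 change was 5.74 ± 0.56 (SE, edgeR adjusted p = 0.000743), the smallest adjusted p of the comparison. The call held under all 18 alternative settings that gave this cluster an adjusted p, which ran from 8.01e-42 (edgeR, no filter on low counts) to 0.00556 (edgeR, without control replicate 2). DESeq2's own filter on mean count gave it none.

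Both clusters were set beside the other activators. VP64 had no reads of cluster 4232 in either library, VPR held 88 and 75 counts and SAM 260 and 295, so Suntag lay near VPR and below SAM. Suntag differed by edgeR from VP64 (adjusted p = 0.00102) and from SAM (log2 difference -2.10, adjusted p = 0.000513), and the difference from VPR did not pass (log2 difference 0.21, adjusted p = 0.775). Cluster 7272 was at 0 in the VP64, VPR and SAM libraries, and Suntag differed from VP64 (edgeR adjusted p = 0.0301) and SAM (0.0207), while the test against VPR gave 0.0595. The dot plot of 4 clusters shows these levels.

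**Figure D2:**
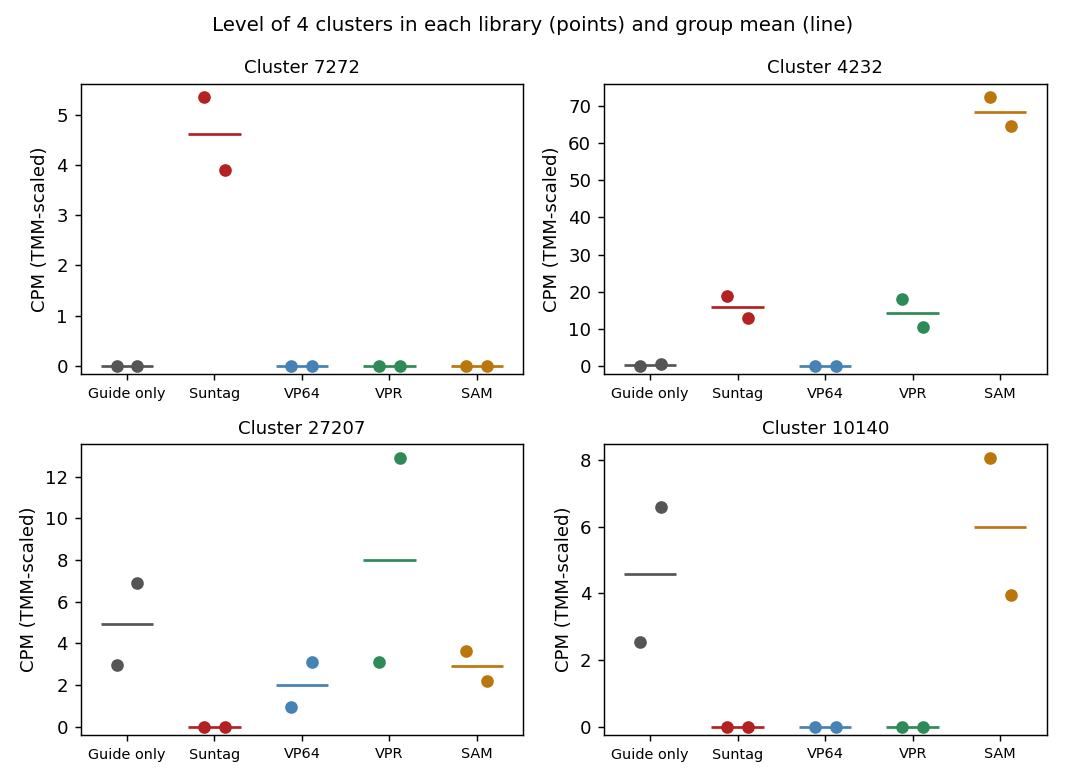
Level in CPM, scaled by TMM factors (y axes, one per cluster), of clusters 7272, 4232, 27207 and 10140 in each library (points) and the mean of the 2 libraries (lines) by group (x axes). Cluster 7272 lies above 0 only in the 2 Suntag libraries, cluster 4232 is highest in SAM with Suntag and VPR between 10.4 and 18.9, and clusters 27207 and 10140 are at 0 in both Suntag libraries.

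The other rises of at least 2-fold were an identical pair of clusters of 6807 nt, described below with cluster 10140, and 3 clusters of 301, 654 and 1407 nt. The cluster of 301 nt held 140 and 62.3 counts in Suntag and 22.9 and 21.6 in the control, at a log2 change of 2.12 (edgeR adjusted p = 0.0166). Summed with a second cluster of 301 nt, the counts were 227 and 89 against 42 and 37, whole within 0.08. The sum was 3.79-fold higher in Suntag (95% exact interval 2.96 to 4.92, edgeR adjusted p = 0.0188), with 2 Suntag libraries that differed from each other by more than the control libraries did. The control stood apart here, since the listed cluster held 87.8 to 175 counts in the 6 libraries of the other activators. The cluster of 654 nt held 69 and 88 counts against 31 and 34, all whole, and rose by 1.22 ± 0.23 on the log2 scale (SE, edgeR adjusted p = 0.0227). The cluster of 1407 nt held 69 and 83 against 28 and 44, also whole (log2 change 1.04 ± 0.21 SE, edgeR adjusted p = 0.0293). The calls of the clusters of 654 and 1407 nt held in 7 of the 10 fits that left out 1 library, that of the listed cluster of 301 nt in 8, and those of the pair of 6807 nt in 4.

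Just under 2-fold, a cluster of 408 nt with 4 transcripts had the tightest libraries of the larger rises. It held 213 and 217 counts in Suntag and 91 and 122 in the control, or 38.2 ± 0.319 CPM against 19.5 ± 0.21 CPM (SD, n = 2 each). Its log2 change was 0.97 ± 0.12 (SE, edgeR adjusted p = 0.00369), and it was called in all 10 fits that left out 1 library. A single-transcript cluster of 1097 nt rose from 89.5 ± 0.883 CPM to 163 ± 33.8 CPM (SD, n = 2 each, edgeR adjusted p = 0.00463) and kept its call in 9 of those 10 fits. The most abundant of the 15 named higher clusters, of 2436 nt, held 3184 and 4268 counts in Suntag and 2179 and 1602 in the control. That is 662 ± 133 CPM against 360 ± 145 CPM (SD, n = 2 each), with an edgeR adjusted p of 0.0316 and a call in 6 of the 10 fits. The libraries of each group differed widely there but did not overlap. The remaining 5 of the 15 named higher clusters, of 560 to 3171 nt, had log2 changes from 0.83 to 0.92.

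The largest falls were of clusters whose counts were not whole, as when reads are divided between clusters. For 4 of them, counts were also summed with a cluster nearby in the list that was nearly equal in length or added up to whole reads, and none of these sums passed the test. Cluster 27207, with 1 transcript of 5003 nt, held 0 counts in both Suntag libraries and 14.1 and 42.7 in the control. With the floor of 3 counts, Suntag was 20-fold lower (edgeR adjusted p = 0.0304). The neighbouring cluster of 5002 nt held 79.7 and 88.9 counts in Suntag and 58.1 and 58.5 in the control. Summed over the pair, Suntag held 79.7 and 88.9 counts and the control 72.2 and 101, so the groups overlapped. The pair was formed by length, and its sums missed whole numbers by up to 0.35. The ratio of the sums was 0.927 (95% exact interval 0.745 to 1.15), and the log2 change was -0.07 (edgeR adjusted p = 0.909). The call of cluster 27207 alone also ended without control replicate 1 (edgeR adjusted p = 0.0582), control replicate 2 (0.21) or Suntag replicate 2 (0.0662), with the effective length offset (0.0566) and with the length trend removed (0.0737).

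Cluster 10140, with 1 transcript of 6806 nt, likewise held 0 counts in Suntag and 12.5 and 41.0 in the control (18.6-fold lower with the floor, edgeR adjusted p = 0.0197). It was at 0 in the 4 VP64 and VPR libraries too, and held 28.7 and 18.1 counts in SAM. The call ended without control replicate 2 (edgeR adjusted p = 0.174) and with the length trend removed (0.0501). Nearby in the list and within 1 nt in length is the pair of 6807 nt ranked among the rises, which held identical counts, 22.9 and 18.6 each in Suntag and 4.45 and 4.08 each in the control, at a log2 change of 2.31 (edgeR adjusted p = 0.0316). The 3 clusters together held 45.9 and 37.2 counts in Suntag and 21.4 and 49.2 in the control, a ratio of 1.11 (95% exact interval 0.798 to 1.54, edgeR adjusted p = 0.763). The sums missed whole numbers by up to 0.4, so this grouping rests on length and not on whole reads. No change of this trio was detectable at this depth, while 1 member was called lower and 2 were called higher.

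A single-transcript cluster of 1882 nt held 4 and 5.75 counts in Suntag and 30.4 and 48.8 in the control, at a log2 change of -2.98 (edgeR adjusted p = 0.0197). With its neighbour of 2325 nt it summed to 93 and 92 counts in Suntag against 95 and 104 in the control, whole within 0.06, a ratio of 0.882 (95% exact interval 0.718 to 1.08, edgeR adjusted p = 0.732). A cluster of 2892 nt fell from 71.4 and 99.3 counts to 41.7 and 24.8 (edgeR adjusted p = 0.0146), and with its neighbour of 6827 nt held 428 and 409 counts against 402 and 540. Scaled by library, that sum stood at 74.4 ± 2.75 CPM in Suntag against 86 ± 1.06 CPM (SD, n = 2 each), so Suntag stayed lower without overlap, at a ratio of 0.843 (95% exact interval 0.767 to 0.926). The interval covers counting error only, and the sum did not pass the test over libraries (edgeR adjusted p = 0.363).

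The same joining was then applied across the whole table, to pairs of nearby clusters whose counts were not whole but added up to whole reads within 0.06, or whose lengths lay within 1 nt. It was chosen after these values were seen. It joined 263 clusters into 128 sets. Among them were 9 called clusters, 5 higher and 4 lower, and 1 of the 128 sets passed the test, the one of 301 nt. The number of calls was 168 after joining against 176 before, but those of at least 2-fold were 9 (5 higher, 4 lower) against 15. The 5 higher ones were clusters 7272 and 4232, the joined set of 301 nt, and the clusters of 654 and 1407 nt.

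The other 4 falls of at least 2-fold were in clusters of 3211, 1594, 6934 and 2484 nt with 2 to 5 transcripts, and in none of them were the counts whole. The cluster of 6934 nt held 203 and 209 counts in Suntag against 608 and 392 in the control, at a log2 change of -1.37 (edgeR adjusted p = 0.0258). That of 2484 nt held 142 and 132 against 257 and 417 (log2 change -1.33, edgeR adjusted p = 0.0415). Those of 3211 and 1594 nt held 6.72 and 0 against 84.6 and 65.2, and 14.2 and 23.2 against 123 and 50.2 (edgeR adjusted p = 0.0495 and 0.0419). Their calls held in 8, 2, 3 and 5 of the 10 fits without 1 library, in the order 6934, 2484, 3211 and 1594 nt. The largest fall with whole counts was smaller: a cluster of 3752 nt held 81 and 78 counts in Suntag and 130 and 133 in the control, or 14.1 ± 0.445 CPM against 24.5 ± 4.39 CPM (SD, n = 2 each, log2 change -0.78, edgeR adjusted p = 0.0316). Its call held in 5 of the 10 fits without 1 library. A cluster of 4604 nt with 16 transcripts had the lowest adjusted p of the named falls, with 437 and 430 counts against 588 and 723 (log2 change -0.64 ± 0.09 SE, edgeR adjusted p = 0.00934). The remaining 5 of the 15 named falls, 2 of them clusters of 5304 nt with the same counts in all 4 libraries, lay between -0.59 and -0.74 on the log2 scale.

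Over all calls, whole counts in the 4 libraries were found for 42 of 176 (23.9%), against 37.9% of tested clusters, and for 3 of the 15 of at least 2-fold. The part of divided reads in the other calls was not tested.

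Clusters with reads in 1 group alone were few and shallow. Of the 31848 listed clusters, 249 were at 0 in both control libraries and above 0 in both Suntag libraries, but only 8 of these held at least 10 summed counts. Cluster 7272 led them with 52 counts, and the second held 30.1. That second one, of 1402 nt, had 12.3 and 17.8 counts in Suntag and also 11.5 and 12.6 in VPR replicate 2 and SAM replicate 2, and it did not pass the test (edgeR adjusted p = 0.0989). In the other direction 175 clusters were at 0 in both Suntag libraries and above 0 in both control libraries, 7 of them with at least 10 counts, led by clusters 27207 and 10140. The third, of 4269 nt, held 2.24 and 38.5 counts in the control, nearly all from 1 library (edgeR adjusted p = 0.137).

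Higher calls were of short clusters and lower calls of long ones. Higher calls had a median length of 1097 nt and lower calls one of 4303 nt, against 2878 nt over all tested clusters. Below 700 nt, 9.31% of 247 tested clusters were called higher, and from 700 to 1500 nt 4.11% of 1751, with 0 called lower in both classes. From 1500 to 3000 nt the shares were 0.563% and 0.241%, and from 3000 to 9000 nt 0.134% and 0.553%. None of 299 clusters of 9000 nt or more was called. The median log2 change over all tested clusters moved the same way, 0.27, 0.20, 0.04, -0.07 and -0.11 from the shortest to the longest class. The scatter plot of change by length shows both.

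**Figure D3:**
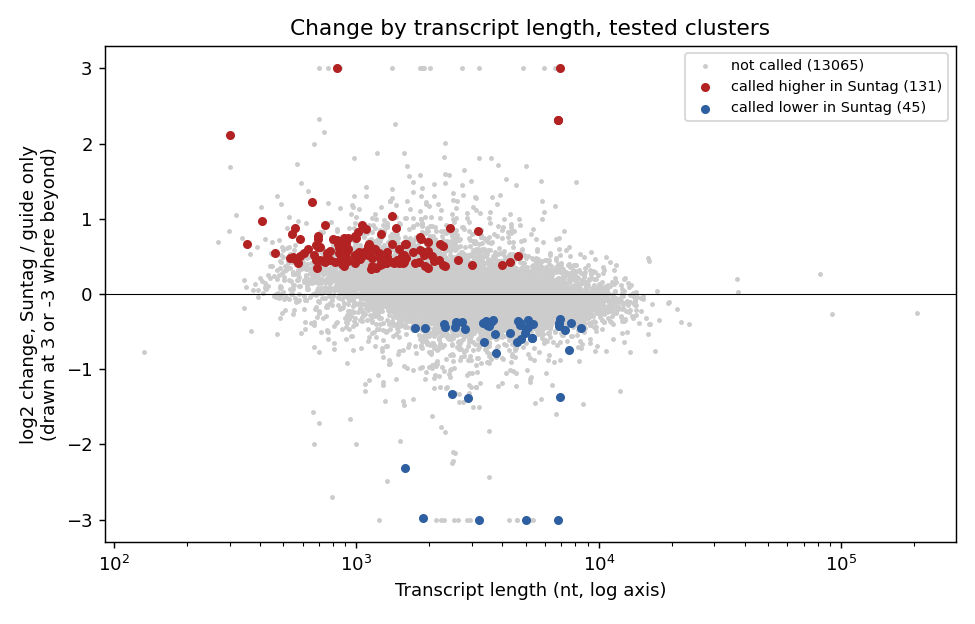
log2 change in Suntag against guide only (y axis, drawn at 3 or -3 where beyond) of each tested cluster by transcript length in nt (x axis, log scale), with the 131 higher calls in red, the 45 lower calls in blue and the rest in grey. Red points lie mostly to the left of 3000 nt and blue points to the right of 1500 nt, and the grey cloud slopes down with length.

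The median log2 deviation of clusters under 700 nt less that of clusters over 3000 nt was taken in each library. It was 0.146 and -0.106 in Suntag and -0.308 and -0.332 in the control. The groups did not overlap and their means differed by 0.34, but 2 libraries against 2 cannot give a permutation p below 0.333. Without Suntag replicate 1 the difference was 0.214 and without Suntag replicate 2 0.466. The other 6 libraries ran from -0.198 to 0.367, so the 2 control libraries were the lowest of all 10. Suntag was not the highest group: its mean was 0.0197, against 0.119 in VP64, 0.296 in VPR and -0.0982 in SAM. The control libraries also had the longest fragments of all 10 (133 and 129 nt) and the Suntag libraries the shortest (96.6 and 89.8 nt). Mean fragment length by group was 93.2 nt in Suntag, 113 nt in VP64, 112 nt in VPR and 107 nt in SAM. The part of fragment length in this pattern was not tested. With the 2 compared groups at opposite ends of fragment length, it cannot be told apart from the activator in this comparison.

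**Figure D4:**
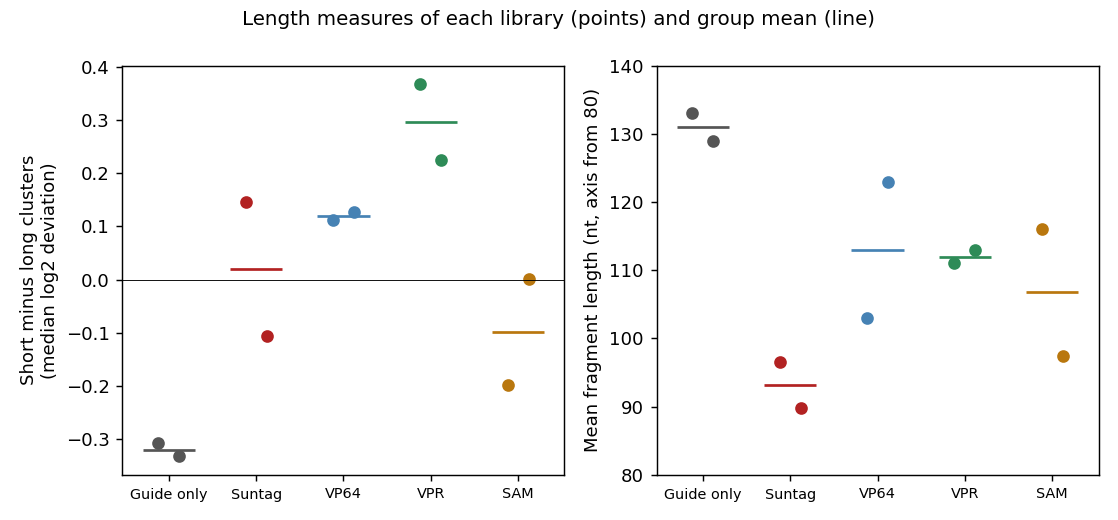
Left, the median log2 deviation of clusters under 700 nt less that of clusters over 3000 nt (y axis); right, the mean fragment length in nt (y axis from 80), for each library (points) with the mean of the 2 libraries (lines) by group (x axes). The guide-only libraries are lowest on the left, at -0.308 and -0.332, and highest on the right, at 133 and 129 nt, while the Suntag libraries are lowest on the right.

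With each library's trend on transcript length removed, 14 of the 176 calls remained, 7 higher and 7 lower, and none was added. Of these, 7 were among the named clusters: 7272 (edgeR adjusted p = 0.0399) and 4232 (0.000767), those of 301, 1097, 4604, 2892 and 1882 nt. Of these 7 named clusters, only 4232 had whole counts in the 4 compared libraries. Those of 301, 2892 and 1882 nt were summed with neighbours above. The other 7 had log2 changes from 0.42 to 0.59 in 3 higher clusters of 4622, 4283 and 2187 nt, and from -0.42 to -0.55 in 4 lower ones of 1752 to 2330 nt. The median length of the 14 was 2243 nt. With an offset of RSEM's effective length in place of the trend, 43 clusters were called, 31 higher and 12 lower.

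The mix of transcripts within a cluster gave a readout that the counts do not use. RSEM reports for each cluster the mean length of its transcripts weighted by their abundance, so this length shifts when the balance of long and short transcripts shifts. Of 16057 clusters with at least 2 transcripts, 8666 had an expected count of at least 20 in all 10 libraries and were tested with limma. Of these, 5 passed at an adjusted p under 0.05 (0.0577%), 4 shorter and 1 longer in Suntag, and 498 had an unadjusted p under 0.05. None of the 5 was called by its count. In all 5 both Suntag libraries lay outside the range of the other 8. The test selects for such a gap and the share of all 8666 so placed is not given here, so this adds nothing to the test. In simulated data with a shift of 0.5 on the log2 scale in 200 of these clusters, the test recovered 92.5%, with 16 false calls. Apart from the largest, the called shifts in the data ran only from -0.0454 to 0.0333, so this recovery does not cover them.

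The largest shift was in a cluster of 3 transcripts. Its weighted length was 6061 and 6219 nt in Suntag and 8289 and 8326 nt in the control, and from 8249 to 8402 nt over all 8 other libraries. The length fell by 26.1% (limma adjusted p = 0.00111). Its counts were 173 and 132 in Suntag against 140 and 179, with no change by the test (log2 change -0.11 ± 0.17 SE, edgeR adjusted p = 0.823). The shift passed against VP64, VPR and SAM as well (limma adjusted p = 0.00106, 0.000533 and 0.00108) and held in 13 of 14 settings, the exception being the fit of the 4 compared libraries alone (limma adjusted p = 0.169).

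The other 4 shifts were small. A cluster of 2 transcripts had a length of 2588 and 2587 nt in Suntag and 2660 nt in all 8 other libraries, that is, its shorter transcript was assigned reads in Suntag alone (the length fell by 2.72%, limma adjusted p = 0.00111). Another pair of transcripts gave 1107 and 1105 nt against 1116 nt in all 8 others (limma adjusted p = 0.015), at 51 to 60 counts per library. A cluster of 3 transcripts shortened from 8123 and 8144 nt to 7888 and 7875 nt (limma adjusted p = 0.0118), and one of 7 transcripts lengthened from 2866 and 2868 nt to 2938 and 2930 nt (limma adjusted p = 0.0268). The calls at 1116 nt and of 7 transcripts held in 5 of 13 settings each and ended without either control library. Without either library of VPR or of SAM they ended too. A shift that small corresponds to few reads, and the division of reads between transcripts is RSEM's estimate. Whether fragment length moves this estimate was not tested.

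**Figure D5:**
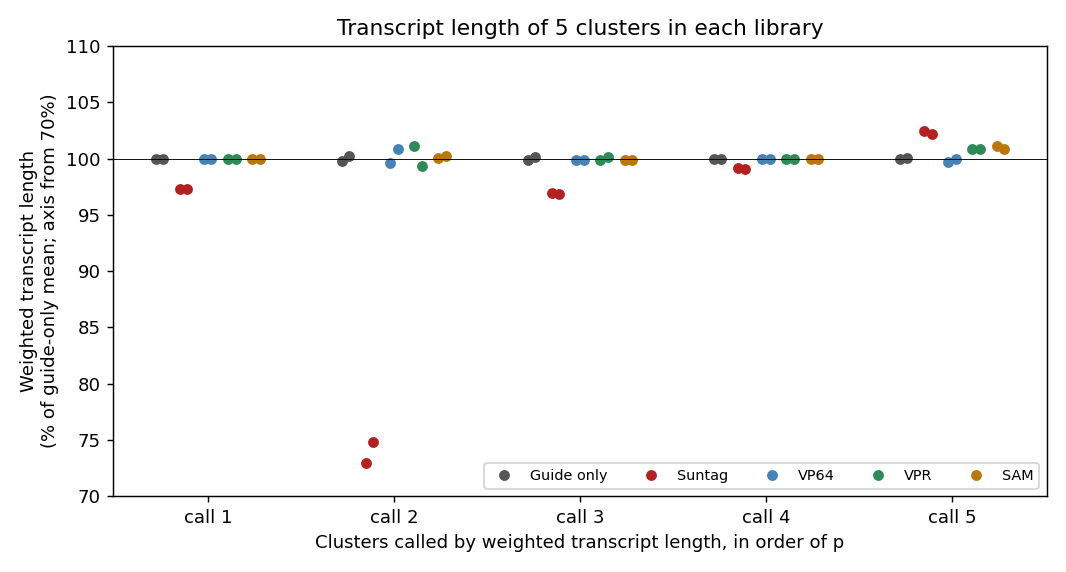
Abundance-weighted transcript length as a percentage of the guide-only mean (y axis, from 70%) of the 5 clusters called by this measure (x axis, in order of p), with 1 point per library coloured by group. The Suntag points lie apart from the other 8 in each cluster, by far the most in the second, where they are 26.1% lower.

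Few of the called clusters also separated Suntag from another activator. Those tests use the same Suntag libraries and so are not independent of the comparison. Of the 176 clusters, 10 also differed between Suntag and VP64, 20 between Suntag and SAM and 0 between Suntag and VPR, out of 31 (0.234% of those tested), 228 (1.72%) and 0 calls by edgeR in these comparisons. For Suntag against VPR, 1761 clusters had an unadjusted p under 0.05 and DESeq2 called 65, 15 higher and 50 lower in Suntag. With 0 calls by edgeR against VPR, no cluster could be called against all 4 other groups, so that count says nothing about changes particular to Suntag. In 130 of the 176 the 2 control libraries lay beyond all 8 activator libraries, 102 of them with the control lowest, whereas this held for 10.7% of all tested clusters. In 44 of the 176 the 2 Suntag libraries lay beyond all 8 others, against 5.7% of tested clusters. Both placements need a gap between the Suntag and control libraries, which all 176 had. Of the 5809 tested clusters with that gap, 1414 had the control and 755 had Suntag so placed. The calls were selected for this gap, so their higher shares are no support for them. Against the same control, VP64 had a median log2 change of 0.34 over the 131 higher clusters and -0.22 over the 45 lower ones, VPR 0.51 and -0.34, and SAM 0.32 and -0.39. These medians share the control with the comparison and describe clusters chosen for their change in Suntag.

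A few clusters could be given a likely name because the identifier of their only transcript, its version ignored, is listed in RefSeq as a synonym. The names carry that uncertainty, and matches that were more doubtful are left out. SLC9A3-AS1, a long noncoding RNA antisense to a sodium-proton exchanger gene, held 28.0 and 34 counts in Suntag and 25 and 37 in the control, and did not change by the test (log2 change -0.04 ± 0.31 SE, edgeR adjusted p = 0.978). The libraries do not mark the strand, so reads of the exchanger gene cannot be told apart from it where they overlap. ACTA2-AS1, HNF4A-AS1 and ZNF350-AS1 had 0 counts in all 10 libraries, which allows up to 0.265 CPM over the Suntag group and 0.28 CPM over the control.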

How the data were processed

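Expected counts, RSEM's estimated counts, were deposited by the authors in 1 table per library, together with TPM, transcript length and effective length. Per the submitters' processing notes they came from RSEM 1.2.1 with hg19. For the annotation of transcripts, the version is not given in the sources at hand. Deposited FPKM was not used. TPM served only as a description. Per the labels' protocols, complementary DNA was primed with random hexamers and tagmented, which does not mark strand.

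Groups came from sample titles. Expected counts were rounded, and edgeR 4.0.16 under R 4.3.3 was used with filterByExpr, TMM and its quasi-likelihood F test over all 10 libraries with 1 coefficient per group. The Benjamini-Hochberg adjustment ran over all 13241 tested clusters, with a threshold of 0.05. CPM uses TMM-scaled totals. The weighted length was tested on the log2 scale with limma 3.58.1 (trend). Count ratios have exact 95% Poisson intervals, and 0 counts in a group were set to 3. A count was called whole within 0.01 in the 4 libraries. DESeq2 1.42.0 was an alternative.

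Named clusters are the 15 higher and 15 lower calls with the largest log2 change, a mean of at least 1 CPM and no overlap between groups. At most 2 each are given by number. The comparison, rules and lists were chosen with earlier results of these data known. Of 82960 transcript identifiers, 4 single-transcript clusters were matched to gene names, through RefSeq synonyms with the identifier's version ignored. Doubtful matches were left out. Partner clusters and joined sets were chosen after their values were seen. Tests were checked on simulated data.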

Additional observations from a re-analysis of the deposited data

Results flagged for a closer look

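Some results differed between Suntag and another activator by the same fits. Cluster 7272 differed from VP64 and from SAM, with a fitted log2 difference of 7.56 in each (edgeR adjusted p = 0.0301 and 0.0207). All 4 of those libraries held 0 counts, so this value depends on the prior count and is no measure of size. Cluster 4232 differed from VP64 by 9.34 (edgeR adjusted p = 0.00102), again against 0 counts, and from SAM by -2.10 (0.000513). Cluster 10140 was lower than in SAM, with a fitted value of -7.91 against 0 counts in Suntag (edgeR adjusted p = 0.013). Summed with the pair of 6807 nt, it did not differ from the control by the test (edgeR adjusted p = 0.763). The difference of that sum from SAM is not given here.

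The weighted length of the 5 clusters called by this measure also separated Suntag from other activators. The largest shift, in a cluster of 3 transcripts, was -0.44 on the log2 scale against VP64, -0.439 against VPR and -0.438 against SAM (limma adjusted p = 0.00106, 0.000533 and 0.00108). The cluster at 2660 nt differed by -0.0398 from each of the 3 activators, that at 8123 nt by -0.0436 from VP64 and SAM and -0.0456 from VPR, and that at 1116 nt by -0.0131 from each. The cluster of 7 transcripts was longer than in VP64 by 0.0354 (limma adjusted p = 0.0165), and its differences from VPR and SAM did not pass (0.124 and 0.157).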

How the results depend on the processing

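Against 176 calls, 15 of them at least 2-fold, RLE factors gave 170, of which 169 were among the 176. DESeq2 gave 164, of which only 90 were among the 176. The count was 590 (91 at least 2-fold) with no filter on low counts, which held all 176. It was 24 in a fit of the 4 compared libraries alone, 21 of them among the 176. With the effective length offset it was 43 (7 at least 2-fold), 39 of them among the 176. With the length trend removed it was 14 (5 at least 2-fold), all among the 176. DESeq2 gave an adjusted p to 2934 clusters and none to 82 of the 176, and 0 of its calls reached 2-fold. Without its filter on mean count, added after seeing the data, it made 90 calls, 8 at least 2-fold. Joining clusters that share reads left 9 at least 2-fold. Removing 1 library gave 7 to 376 calls and 5 to 32 at least 2-fold. For Suntag against VP64 it gave 0 to 528 calls, against VPR 0 to 476 and against SAM 3 to 622, each highest without Suntag replicate 1. The lowest were without VP64 replicate 1 and SAM replicate 1 for the first and the last. Against VPR there were 0 calls without either control or either SAM library, as with all libraries. DESeq2 made 119 calls against VP64 and 65 against VPR.

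Replicate numbers did not pair the samples: the correlation of same-numbered deviations was 0.0125 for Suntag and control, and between -0.0705 and 0.0715 over the 10 pairs of groups. With the replicate number as a block there were 108 calls against the control, all among the 176, and 1 against VPR, 149 against SAM and 2 by weighted length.

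The 5 calls by weighted length became 2 at a minimum count of 50, 8 at a minimum of 5 and 2 in the fit of the 4 compared libraries alone, and ran from 3 to 47 without 1 library. The 2 calls in the fit of the 4 compared libraries alone were other clusters. None of the 5 passed in that fit (limma adjusted p from 0.132 to 0.357). The difference between short and long clusters, 0.34, was 0.214 to 0.466 without 1 library and -0.0115 with the length trend removed, which is by construction near 0. Groups of 2 libraries limit every result here.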
